A study of Mus musculus with 7 samples.

Results

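The mature miRNAs of the mouse hairpin mir-210, mmu-miR-210-3p and mmu-miR-210-5p, were followed across naive CD8+ T cell subsets of neonatal and adult mice. Both arms were taken by name from the count table, which makes 2 of the 1978 mature miRNA names listed. They were chosen by name with earlier results of the same libraries in view, and the measured values that bear on that choice are the neonatal and adult levels, since miR-210-3p had been listed among the miRNAs higher in neonatal cells. Their differences between neonatal and adult cells are therefore given as a description with no test.

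Small RNA was sequenced from spleen CD8+ T cells, taken from gBT-I neonates and adults, a mouse strain with a transgenic T cell receptor. Cells were sorted as CD44hi CD122hi, the virtual memory (VM) cells that carry memory markers without having met antigen, or as CD44lo CD122lo, true naive (TN) cells. There were 2 neonatal VM, 1 neonatal TN, 2 adult VM and 2 adult TN libraries, and neonatal TN values therefore have no SD. The labels give neither the age of the mice in days nor whether replicates came from separate or pooled animals, so the p-values below rest on a spread among libraries that may be technical. All groups share the transgenic receptor, so none stands for a natural T cell repertoire.

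MiR-210 is the miRNA best known for its response to low oxygen. HIF transcription factors raise its hairpin transcript when oxygen falls, and in many cell types it represses ISCU, which builds the iron-sulfur clusters of mitochondrial enzymes. In mouse T cells it is raised by activation, and in mouse Th17 cells it represses Hif1a, which encodes a subunit of HIF. The 3p arm is the one usually loaded as the guide, and the 5p arm lies opposite to it in the hairpin.

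Both arms lie on the minus strand of chromosome 7 in the GRCm38 build (mm10), and are shown to give the sequences that were counted, with the seed (bases 2 to 8, the main determinant of target choice) in capitals. MiR-210-3p covers bases 141221407 to 141221428 and miR-210-5p bases 141221445 to 141221466, both from RefSeq (GRCm38.p6).
miR-210-3p: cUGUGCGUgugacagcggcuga
miR-210-5p: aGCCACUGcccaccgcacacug
In the hairpin, at bases 141221384 to 141221493, the 5p arm comes first and the capitals mark both arms.
Mir210 hairpin: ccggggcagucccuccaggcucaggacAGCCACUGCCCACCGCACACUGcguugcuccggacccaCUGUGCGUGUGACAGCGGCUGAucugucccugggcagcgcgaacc
The seeds of the arms differ from each other, and 0 other mature names among the 1679 of the RefSeq table carry either seed. Both arms are 22 bases long, with 63.6% G and C in miR-210-3p and 68.2% in miR-210-5p, so their levels are compared without a correction for length. In the structure predicted for the hairpin by RNAfold, 16 of the 22 bases of the 3p arm pair with the 5p arm, among them 6 of the seed, at a free energy of -48.0 kcal per mol. In the GENCODE M21 annotation 0 other genes overlap Mir210. The nearest are Rassf7, which ends 2726 bases below it, and Phrf1, which starts 7291 bases above it, both on the plus strand.

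Library totals ran from 1577031 to 3278451 counts. Of all names, 288 had at least 10 CPM (counts scaled to the library total) in at least 2 libraries and were tested. Both arms of mir-210 passed that filter only through the neonatal libraries. Levels below are CPM scaled by TMM factors, which set the libraries to a common centre. Intervals on single libraries are exact 95% Poisson intervals and cover counting error only.

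MiR-210-3p, the guide arm, stood highest in neonatal cells, whichever the subset, lower in adult VM cells and lowest in adult TN cells. It had 28.7 and 33.2 CPM in the neonatal VM libraries (58 and 127 counts) and 34.8 CPM in the neonatal TN library (112 counts). In adult VM libraries it had 5.23 and 8.64 CPM (13 and 25 counts), and in adult TN libraries 2.16 and 0.856 CPM (4 and 2 counts). The neonatal libraries did not overlap the adult ones, and the adult VM libraries did not overlap the adult TN ones. How many of all tested miRNAs separate in this way was not counted, here or below, so such gaps only describe the levels. Between the top 2 groups, the neonatal TN value lay above the neonatal VM range, by less than the gap between the neonatal VM replicates. The counting intervals of adult VM replicate 1 (2.79 to 8.95 CPM) and adult TN replicate 1 (0.588 to 5.53 CPM) overlapped. As group means these levels were 30.9 ± 3.18 CPM in neonatal VM, 34.8 CPM in neonatal TN, 6.94 ± 2.41 CPM in adult VM and 1.51 ± 0.921 CPM in adult TN cells (SD, n = 2, 1, 2 and 2).

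MiR-210-5p, the opposite arm, showed the same split by age, with adult subsets close together at very low counts. It had 15.3 and 15.4 CPM in neonatal VM libraries (31 and 59 counts) and 16.2 CPM in the neonatal TN library (52 counts). Adult VM libraries had 1.61 and 1.38 CPM (4 counts each), and adult TN libraries 1.08 and 0.856 CPM (2 counts each). Neonatal and adult libraries again did not overlap. The adult VM values lay above the adult TN values, but a difference of 2 counts a library is within counting error, with intervals of 0.377 to 3.54 CPM in adult VM replicate 2 and 0.131 to 3.90 CPM in adult TN replicate 1.

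**Figure D1:**
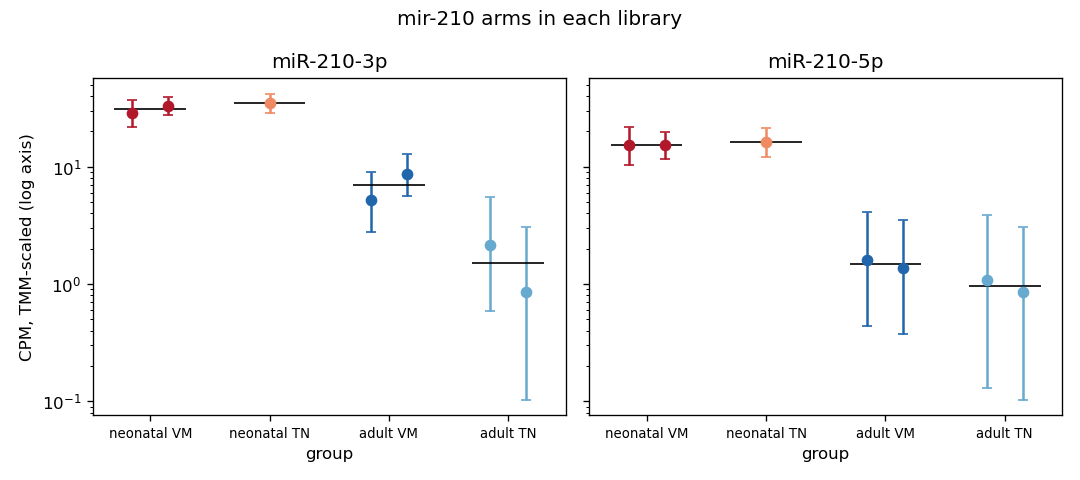
CPM (TMM-scaled, log axis) of miR-210-3p and miR-210-5p in each library by group, with exact 95% Poisson intervals as bars and group means as black lines (the single value for neonatal TN). The neonatal libraries sit between 28.7 and 34.8 CPM for the 3p arm and between 15.3 and 16.2 CPM for the 5p arm, above all adult libraries.

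Neither arm was abundant in any library. By counts, miR-210-3p ranked 175 to 186 in the neonatal libraries and 247 to 420 in the adult ones, among 526 to 639 names with a count per library. MiR-210-5p ranked 218 to 231 in neonatal and 376 to 420 in adult libraries. In bulk samples, fewer cells that carry the miRNA and less of it per cell cannot be told apart.

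Neonatal over adult, the age difference averaged over both subsets was 7.57-fold for miR-210-3p (log2 fold change 2.92, SE 0.50, 95% interval 1.79 to 4.05) and 12.0-fold for miR-210-5p (log2 fold change 3.59, SE 0.38, 95% interval 2.73 to 4.45). Among the 288 tested miRNAs the arms ranked 13 and 9 from the top in that log2 fold change, whose median over all tested miRNAs was -0.05. The background was wide, since 53.8% of the tested miRNAs passed the edgeR quasi-likelihood test with age at a Benjamini-Hochberg adjusted p of at most 0.05, 26.4% higher and 27.4% lower in neonatal cells. These were 76 higher and 79 lower miRNAs, against 119 and 53 when scaled by library totals alone. The value for miR-210-3p depended on the lone neonatal TN library, without which its log2 fold change was 2.17.

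The fitted age difference of miR-210-3p was larger in TN than in VM cells, but the test of that contrast, the interaction given further on, did not pass. In TN cells its log2 fold change was 4.55 (SE 0.70), or 23.4-fold, and in VM cells 2.14 (SE 0.41), or 4.41-fold. As counts summed over libraries, 112 in the neonatal TN library against 6 in the adult TN libraries gave a scaled ratio of 24.3, with an exact counting interval of 10.8 to 67.7. In VM cells 185 neonatal against 38 adult counts gave a ratio of 4.47, with a counting interval of 3.14 to 6.52. The value in TN cells was set by few adult counts, and its log2 fold change was 5.16 without adult TN replicate 1 and 3.86 without adult TN replicate 2. For miR-210-5p, the log2 fold change was 4.02 (SE 0.77) in TN cells and 3.33 (SE 0.57) in VM cells. The 5p counts behind them were 52 in neonatal TN and 4 in adult TN libraries (scaled ratio 16.9, counting interval 6.24 to 64.5), and 90 in neonatal VM and 8 in adult VM libraries (scaled ratio 10.3, counting interval 5.03 to 24.7).

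**Figure D2:**
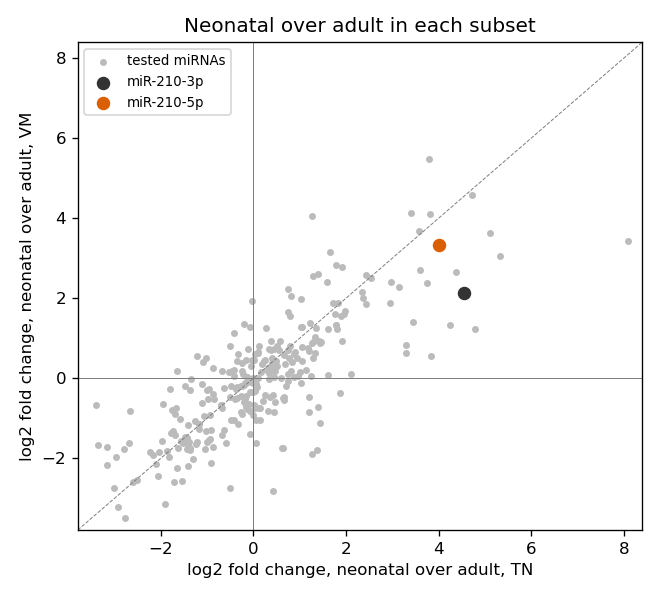
Log2 fold change of neonatal over adult in TN cells (x axis) and in VM cells (y axis) for the 288 tested miRNAs (grey), with miR-210-3p in black and miR-210-5p in orange. The dashed line marks equal change, and both arms lie below it, miR-210-3p further (4.55 in TN and 2.14 in VM) than miR-210-5p (4.02 and 3.33).

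Between the adult subsets, which asks what sets VM apart from TN cells, miR-210-3p rose 4.73-fold in VM cells (log2 fold change 2.24, SE 0.68, 95% interval 0.75 to 3.73, edgeR adjusted p = 0.0136), and was higher in 2 of 2 adult VM libraries than in either adult TN library. In this comparison 39.2% of tested miRNAs passed, 23.6% higher and 15.6% lower in VM cells. The test draws on the adult levels that bear on the choice of the arms, so its p-value is not independent of that choice. The summed counts were 38 in adult VM and 6 in adult TN libraries, a scaled ratio of 4.93 with a counting interval of 2.07 to 14.3. The call depended on single libraries. The edgeR adjusted p was 0.0619 without adult VM replicate 2 (log2 fold change 1.72), 0.0527 without adult TN replicate 1 (2.85) and 0.161 without adult TN replicate 2 (1.63). MiR-210-5p did not pass between the adult subsets (log2 fold change 0.62, SE 0.85, 95% interval -1.25 to 2.48, edgeR adjusted p = 0.56), and with 8 counts in adult VM against 4 in adult TN libraries an interval of 0.417 to 7.07 in the counted ratio holds the 3p value as well.

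Between the neonatal subsets neither arm passed the test. The neonatal TN group is 1 library, so its spread was taken from the other groups, in this fit and in those of age in TN cells and of the interaction, and the lone library was assumed to vary like them. The log2 fold change of VM over TN was -0.17 for miR-210-3p (SE 0.43, 95% interval -1.10 to 0.77, edgeR adjusted p = 0.853), which leaves room for anything from 0.465-fold to 1.71-fold. For miR-210-5p it was -0.07 (SE 0.44, 95% interval -1.03 to 0.88, edgeR adjusted p = 0.923). The sign of both values turned under library total scaling (0.079 and 0.17) and upper quartile scaling (0.21 and 0.30). Of all tested miRNAs, 9.72% passed in this comparison.

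The difference between these subset effects, tested as an interaction, did not pass for miR-210-3p (log2 -2.41, SE 0.81, 95% interval -4.17 to -0.65, edgeR adjusted p = 0.0669), and 7.99% of tested miRNAs passed. Of 9 alternatives with all libraries it passed in 1, with no filter on low counts (log2 -2.35, edgeR adjusted p = 0.0477). Without adult VM replicate 1 it was -2.68. In that fit adult VM as well as neonatal TN is a single library, with its spread taken from other groups. Over the single-library omissions that could be fitted it ran from -3.05 to -1.71. The interaction is also the age difference in VM cells minus that in TN cells. It thus draws on the neonatal and adult levels that bear on the choice of the arms, and its p-values are not independent of that choice. For miR-210-5p the interaction was -0.69 (SE 0.96, edgeR adjusted p = 0.736). Averaged over both ages, VM over TN gave a log2 fold change of 0.70 for miR-210-3p (SE 0.51, edgeR adjusted p = 0.323) and 0.11 for miR-210-5p (SE 0.34, edgeR adjusted p = 0.951), where 24.7% of tested miRNAs passed. Without the neonatal TN library that average compares adult cells alone for the subsets, and miR-210-3p then passed (log2 fold change 2.23, edgeR adjusted p = 0.0151).

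**Figure D3:**
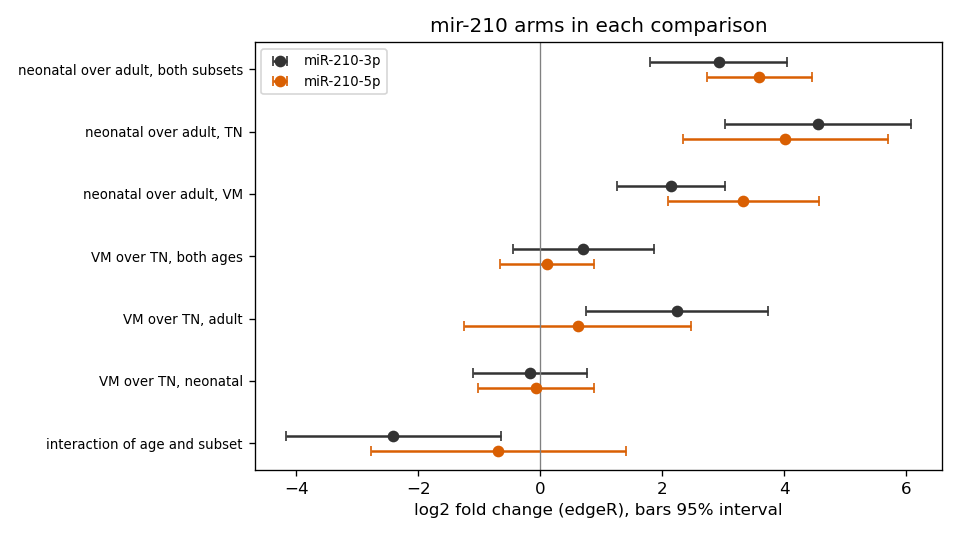
Log2 fold change with its 95% interval (edgeR) of miR-210-3p (black) and miR-210-5p (orange) in 7 comparisons, with the age comparisons on top. Both arms lie between 2.14 and 4.55 with neonatal age, and among the rest the intervals of miR-210-3p in adult VM over TN (2.24) and in the interaction (-2.41, edgeR adjusted p = 0.0669) do not reach 0.

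The use of the 2 arms was similar in the neonatal libraries and poorly resolved in the adult ones. The 3p arm made up 65.2% and 68.3% of mir-210 counts in the neonatal VM libraries (89 and 186 counts) and 68.3% in the neonatal TN library (164 counts). It made up 76.5% and 86.2% in adult VM (17 and 29 counts) and 66.7% and 50.0% in adult TN libraries (6 and 4 counts). Adult shares lay both above and below the neonatal ones. Summed by group, the exact binomial 95% interval was 61.4 to 72.8% in neonatal VM, 60.6 to 75.3% in neonatal TN, 68.6 to 92.2% in adult VM and 26.2 to 87.8% in adult TN cells. These intervals overlap, but the adult VM share of 82.6% lay above the intervals of both neonatal groups. They cover counting error only, and a difference in share between groups was not tested. Over all libraries, 341 counts of miR-210-3p stood against 154 of miR-210-5p, so the minor arm took 31.1%. That is a large share among hairpins in this table: of 225 precursors with 2 listed arms and at least 100 counts, the median minor arm took 1.73%, and 27 had a larger minor share than mir-210.

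**Figure D4:**
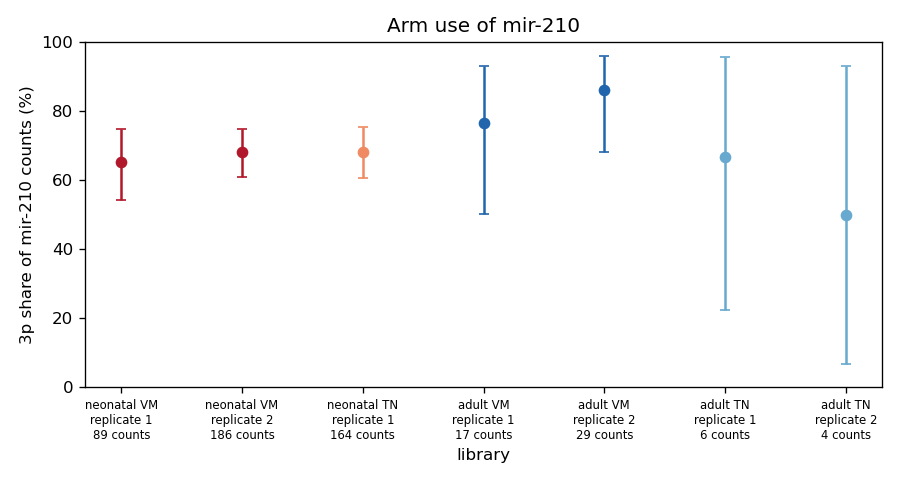
Share of mir-210 counts from the 3p arm (percent) in each library, with exact binomial 95% intervals and the summed counts of both arms under each library. The neonatal libraries sit between 65.2% and 68.3%, and the adult intervals widen as counts drop to 4.

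The arms also moved together over libraries. Pearson's r of log2 CPM between miR-210-3p and miR-210-5p over the 7 libraries was 0.93, given as a description, since both come from 1 hairpin and the points share their libraries and the gap between ages. Their log2 fold changes with age differed by 0.67, against a median difference of 0.66 over the 99 precursors with both arms tested, 48 of which differed more.

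Other miRNAs followed miR-210-3p more closely than its own partner arm, which ranked 17 of 287 in likeness. That rank carries the counting error of the partner arm, which had only 2 to 4 counts in each adult library. The 5 with the highest Pearson's r over the 7 libraries were miR-301a-3p (0.99), miR-18b-5p (0.97), miR-148a-3p (0.97), miR-148b-5p (0.97) and miR-18a-5p (0.97), and 23 tested miRNAs apart from the arms reached at least 0.9. MiR-301a-3p had 2482 and 2837 CPM in neonatal VM, 2370 CPM in neonatal TN, 291 and 547 CPM in adult VM and 119 and 108 CPM in adult TN libraries. It thus had the same order of adult groups and the same higher replicate within adult VM. MiR-18b-5p, of the miR-106a to miR-363 cluster, had 70.7 and 84.7 CPM in neonatal VM, 41.7 CPM in neonatal TN, 7.65 and 15.9 CPM in adult VM and 5.94 and 1.28 CPM in adult TN libraries. None of the 5 carries the seed of either mir-210 arm, and they are shown, from RefSeq (GRCm38.p6) with the seed in capitals, so that the seeds can be set beside those above.
miR-301a-3p: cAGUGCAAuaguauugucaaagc
miR-18b-5p: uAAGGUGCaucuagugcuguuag
miR-18a-5p: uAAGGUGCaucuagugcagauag
miR-148a-3p: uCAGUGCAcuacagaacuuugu
miR-148b-5p: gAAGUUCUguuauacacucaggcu
MiR-18a-5p and miR-18b-5p share a seed, and the others differ. Their genes lie on chromosomes 11 (miR-301a), X (miR-18b), 14 (miR-18a), 6 (miR-148a) and 15 (miR-148b), apart from Mir210 on chromosome 7.

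Other miRNAs reported as raised by low oxygen in human cancer cell lines were set beside mir-210 as a description. They differed less with age than either mir-210 arm. The arms had been chosen with their age difference in view, so that order was partly set by the choice. The part of low oxygen in the mir-210 differences was not tested. Of 13 such miRNAs, in the miR-23, miR-24, miR-26, miR-27, miR-103, miR-107 and miR-181 families, 5 rose and 0 fell with neonatal age over both subsets and 8 did not pass (edgeR), with a median log2 fold change of 0.32 against -0.05 over all tested miRNAs, of which 26.4% were higher and 27.4% lower. The largest increases were miR-181b-5p (1.46), miR-181c-5p (0.90) and miR-181a-5p (0.69), of the family that tunes T cell receptor sensitivity, all below the 2.92 of miR-210-3p. The others were miR-103-3p (0.61) and miR-181a-1-3p (0.46), so all increases but miR-103-3p came from the miR-181 family. Under upper quartile scaling 4 rose and 3 fell, and under library totals 7 rose and 0 fell. In adult VM cells against adult TN cells, 3 of the 13 rose, miR-24-3p (0.76), miR-26b-5p (0.69) and miR-27b-3p (0.65), and 4 fell. The decreases were led by miR-181a-1-3p (-2.47), miR-181a-5p (-2.44) and miR-181b-5p (-2.29), all of the miR-181 family. Over all tested miRNAs 23.6% were higher and 15.6% lower. The count of increases is thus at the background, and that of decreases is above it, mostly from that single family.

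MiRNAs known to rise on T cell activation were set beside mir-210 in the same way, and the part of activation in the mir-210 differences was not tested. Of 13, 3 rose and 2 fell with neonatal age over both subsets, against 4 and 3 under upper quartile scaling and 6 and 1 under library totals. Over all tested miRNAs 26.4% were higher and 27.4% lower, so these counts do not exceed the background. The increases were miR-31-5p (log2 fold change 4.64), miR-146b-5p (1.77) and miR-132-3p (1.17), and miR-155-5p (-1.36) and miR-221-3p (-0.99) fell. In adult VM cells against adult TN cells 9 of 13 rose and 1 fell, beside 23.6% higher and 15.6% lower over all tested miRNAs, with a median log2 fold change of 1.44 against 0.09 over all tested miRNAs. Among the increases, miR-182-5p (2.06), miR-183-5p (1.52) and miR-96-5p (1.60) come from a single cluster, so they are not separate members. The list was also drawn up with earlier results of these data known. The largest increases were miR-21a-5p (2.55), miR-146a-5p (2.52) and miR-182-5p (2.06), near the 2.24 of miR-210-3p, and miR-132-3p fell (-2.34).

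Markers of other cells were read in the same libraries, since miR-210 is made in many cell types. The lymphocyte markers miR-150-5p, miR-142a-3p, miR-142a-5p and miR-181a-5p summed to 162103 to 282625 CPM in neonatal and 338213 to 586287 CPM in adult libraries, far above every other list. The 2 miR-126a arms, of endothelial cells, platelets and progenitors, summed to 54.4 to 75.8 CPM in neonatal and 8.09 to 26.3 CPM in adult libraries, without overlap. Within adults their sum stood at 21.7 and 26.3 CPM in VM and 8.09 and 8.99 CPM in TN libraries. That gap lay in miR-126a-5p (log2 fold change 2.05, edgeR adjusted p = 0.00474), while miR-126a-3p overlapped, at 6.84 and 3.80 CPM in adult VM and 4.86 and 3.42 CPM in adult TN libraries. The 5 stromal and muscle markers, mostly miR-143-3p, summed to 35.6 to 70.6 CPM in neonatal and 5.94 to 28.3 CPM in adult libraries, at 18.1 and 28.3 CPM in adult VM and 5.94 and 9.84 CPM in adult TN libraries, and miR-1a-3p had 0 counts in each library. The 5 erythroid markers summed to 156.0 to 446 CPM in neonatal and 244 to 593 CPM in adult libraries, and the most specific of them, miR-451a, had 2.87 to 9.65 CPM in neonatal and 2.14 to 3.11 CPM in adult libraries. The 2 myeloid miR-223 arms summed to 0.989 to 4.18 CPM in neonatal and 1.71 to 15.9 CPM in adult libraries, and miR-122-5p with miR-205-5p, of hepatocytes and epithelia, to 15.3 to 24.9 CPM in neonatal and 0.428 to 16.5 CPM in adult libraries. Within adults these lists also summed higher in both VM libraries than in both TN libraries, as miR-210-3p did. The erythroid sum was 494 and 593 CPM in adult VM and 244 and 325 CPM in adult TN libraries, with miR-486a-5p (log2 fold change 0.93, edgeR adjusted p = 0.00862) and miR-486b-5p (0.93, edgeR adjusted p = 0.00862) called. The myeloid sum was 6.44 and 15.9 CPM in adult VM and 2.16 and 1.71 CPM in adult TN libraries. The hepatocyte and epithelial sum was 16.5 and 6.91 CPM in adult VM and 4.32 and 0.428 CPM in adult TN libraries, with miR-205-5p called (log2 fold change 2.74, edgeR adjusted p = 0.0147). The sums of the 5 lists of other cells were thus higher in adult VM libraries, but not those of each member. MiR-122-5p had 0 CPM in both adult VM libraries and 1.08 and 0 CPM in adult TN libraries. The lymphocyte sum was lower in adult VM (338213 and 375736 CPM) than in adult TN libraries (494708 and 586287 CPM), with its members split. MiR-150-5p (log2 fold change -0.87) and miR-181a-5p (-2.44) fell, while miR-142a-3p (0.93) and miR-142a-5p (1.28) rose, all called. The part of such cells in the mir-210 differences was not tested.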

How the data were processed

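Small RNA libraries (Illumina TruSeq, 50-100 ng total RNA per the labels' protocols) were made from sorted CD8+ T cells. The authors deposited estimated counts per mature miRNA and precursor, partly fractional and not scaled for depth. Per the submitters' processing notes the build was mm10, and the aligner and counter are not given in the sources used here. The table had 2128 lines. Values were summed per mature name and rounded. Each arm of mir-210 stood on 1 line, and 0 of its 14 values needed rounding.

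The 288 miRNAs that reached 10 CPM in 2 or more libraries entered edgeR 4.0.16 (R 4.3.3), TMM factors, robust dispersions and the quasi-likelihood test, with Benjamini-Hochberg adjustment at 0.05 over all of them. Averages over subsets or ages used a model of age plus subset, with 4 residual degrees of freedom, and each other contrast from a model of group means with 3. SE and intervals are Wald type from the fitted model. The interaction is VM over TN in neonatal minus that in adult cells. The method was tested on simulated data in which changes were planted with age only, so the tests of VM over TN were not covered. Alternatives used RLE, library total and upper quartile scaling, no filter, filterByExpr, DESeq2 1.42.0, limma voom 3.58.1, dispersions without robust weights, a block for replicate number, and each library left out. Likeness used log2 CPM with a prior count of 2. Folding used RNAfold 2.7.2, and figures matplotlib 3.10.9.

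The members and lists were chosen with earlier results of these data known, so the p-values of the arms are not independent of that choice. Named miRNAs were both arms, the 5 most like miR-210-3p, and up to 3 called members of each list in each direction. Replicates of a group differed beyond sampling noise, most in adult VM. Chi-square over degrees of freedom was 455 in adult VM, 77.8 in neonatal VM and 56.5 in adult TN cells. Target genes and isomiRs were not analysed here.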

Additional observations from a re-analysis of the deposited data

How the results depend on the processing

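Adult values rest on few counts, with 2 to 4 of each arm in an adult TN library. In all scalings, filters and tools run, and with a library left out, both arms stayed higher in neonatal cells in the age comparisons that could be fitted, as values without a test. Age in TN cells could not be fitted without the lone neonatal TN library, and the average over both subsets then compares VM cells alone. For both subsets, TN and VM, log2 fold changes of miR-210-3p ran from 2.79 to 3.37, from 4.25 to 4.91 and from 2.02 to 2.65 over these alternatives, and from 2.17 to 3.45, 3.86 to 5.16 and 1.83 to 2.61 with a library left out. Those of miR-210-5p with a library left out ran from 3.35 to 3.71, 3.73 to 4.05 and 3.27 to 3.42. They moved by more than the replicate SD to 4.04 (both subsets), 4.38 (TN) and 3.83 (VM) under library totals, and in TN to 3.71 with upper quartile factors, 3.85 with no filter and 3.77 with limma voom.

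The rise of miR-210-3p in adult VM cells passed in 9 of 9 alternatives with all libraries (adjusted p 0.00311 to 0.0273), DESeq2 and the replicate block (0.0114) included. It did not pass without adult VM replicate 2 or without either adult TN replicate. With a library left out its log2 fold changes ran from 1.63 to 2.85. Over both ages that range was 0.29 to 2.23. In neonatal cells VM over TN, near 0 and not called, changed sign for miR-210-3p to 0.079 with library totals, 0.21 with upper quartile factors and, with a library left out, ran from -0.22 to 0.010. For miR-210-5p it changed to 0.17 and 0.30 in the same scalings and ran from -0.11 to 0.011. With all libraries, the interaction of miR-210-3p passed in 1 of 9 alternatives, that with no filter (-2.35). It ran from -3.05 to -1.71 with a library left out. The block changed no call for either arm (interaction of miR-210-3p -2.52, adjusted p 0.0618). The replicate numbers share only a number: deviations correlated at 0.14, -0.16 and 0.02 between groups.

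Counts of miRNAs called moved more. Over both ages, 71 for VM over TN became 107 with no filter and 42 with the replicate block, and 18 to 112 with a library left out. In neonatal cells, 28 became 52 with upper quartile factors, 52 with no filter and 49 with filterByExpr, and 16 to 77 with a library left out. For the interaction, 23 became 43 with no filter, 40 with filterByExpr and 38 with DESeq2, and 6 to 86 with a library left out. With a library left out, 138 for age in TN cells became 83 to 179, and 113 for adult VM over TN 23 to 142. Library totals moved the median age difference of all tested miRNAs by 0.45 (log2) and gave 119 higher and 53 lower, against 76 and 79.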
